A study of Mus musculus with 50 samples.

Results

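The aminoacyl-tRNA synthetases, the enzymes that load each amino acid onto its transfer RNA, were followed in the aging gastrocnemius, a calf muscle of the mouse. The deposited tables hold 23880 genes, and 37 of them were taken by their symbols: the letter of an amino acid followed by "ars" with or without a number, the subunit genes Farsa and Farsb, Eprs and Tarsl2. The 16 symbols of the form letter, "ars" and 2 were counted as mitochondrial (among them Aars2, Cars2, Ears2, Fars2, Hars2, Iars2, Lars2, Nars2, Pars2, Rars2, Sars2, Tars2, Vars2, Wars2 and Yars2), and the other 21 as cytosolic. Gars and Kars are known to make enzyme for both compartments and were kept with the cytosolic group. The methionine enzyme of mitochondria was not analysed here.

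RNA came from the gastrocnemius of 50 wild-type male C57BL/6JRj mice, an inbred strain, with 1 library per mouse. The groups of 8, 18, 22 and 24 months held 8 mice each, and those of 26 and 28 months held 9. Animals found ill or with tumors at dissection had been left out, so the groups hold survivors without overt disease. All mice received the purified diet AIN-93M, those of 8 and 18 months for 2 months or more before the end and those of 22 to 28 months from an age of about 18 months onward. Diet history and age therefore cannot be told apart between 8 and 28 months. The comparison of 28 with 22 months was added because both ages began the diet at the same age, although the older mice had been on it for longer.

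Cells keep 2 sets of these enzymes. The cytosolic set serves the ribosomes that translate nuclear messages, and part of it is held together in the multisynthetase complex (Dars, Eprs, Iars, Kars, Lars, Mars, Qars and Rars) by the scaffold proteins Aimp1, Aimp2 and Eef1e1. The mitochondrial set is also encoded in the nucleus, is imported, and serves the few proteins made inside mitochondria. Skeletal muscle holds a large share of the body's protein and amino acids, and cytosolic synthetase genes are known targets of Atf4, a transcription factor induced when amino acids run short.

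Total counts per mouse were 13607229 to 21267375, and all 37 genes passed the filter of 1 CPM (counts scaled to equal library totals) or more in 8 mice or more, which left 12586 genes. The 8 myofibre markers fixed for the check of the tissue, among them Ckm, Acta1 and Myh4, summed to 116344 to 158105 CPM at 8 months and 80242 to 179996 CPM at 28 months. A gene was called at a false discovery rate (FDR) below 0.01 in edgeR's quasi-likelihood test. In a whole muscle, fewer cells of a type and less RNA per cell cannot be told apart.

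The median cytosolic gene was more abundant than the median mitochondrial gene, while Lars2, a mitochondrial gene, was the highest of all and put the mitochondrial sum above the cytosolic one. On the per-length scale of TPM, which divides by transcript length and library total, averaged over all 50 mice, the median cytosolic gene had a level of 62.9 TPM and the median mitochondrial gene 13.2 TPM, or 10.98 TPM without Lars2. Among cytosolic genes Eprs, which makes 1 protein for both glutamate and proline, was highest at 120 ± 37.9 TPM (SD, n = 50), ahead of Kars (lysine) at 107 ± 12.5 TPM and Nars (asparagine) at 102 ± 13.63 TPM. Farsa, a subunit of the phenylalanine enzyme, was the lowest of that group at 21.4 ± 1.67 TPM. In the mitochondrial group Iars2 (isoleucine) had 41.9 ± 4.99 TPM, Fars2 (phenylalanine) 28.7 ± 3.06 TPM, and Pars2 (proline) was lowest at 3.34 ± 0.666 TPM. Apart from Lars2, 14 of the 21 cytosolic genes lay above every mitochondrial one.

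In descending order of mean TPM the genes described here were Lars2, Eprs, Kars, Nars, Qars, Iars, Dars, Gars, Tarsl2, Mars, Sars, Aars, Farsb, Yars, Rars, Iars2, Cars, Vars, Wars, Hars, Fars2, Tars2, Lars, Tars, Farsa, Rars2, Cars2, Yars2, Hars2, Sars2, Aars2, Vars2, Ears2, Nars2, Wars2 and Pars2. Of the 36 neighbouring pairs among all 37 genes, 5 were apart by more than the sum of both SDs, namely Lars2 over Eprs, Rars over Iars2, Hars2 over Sars2, Vars2 over Ears2 and Nars2 over Wars2. All other neighbours did not differ beyond their spread.

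Lars2, the mitochondrial leucine enzyme, stood apart from the whole family. Its mean was 2657 ± 1078 TPM (SD, n = 50), 63.4 times that of Iars2, and between 52959 and 235436 reads were assigned to it per mouse. It took 0.300% to 1.53% of all counts. In the GENCODE vM21 transcripts, a stretch of 72 bases in Lars2 matched Gm15564, an antisense transcript, at 98.6% identity, and none matched another protein-coding gene. What the reads on Lars2 stem from was not tested, and sums over the mitochondrial group are given with and without it.

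Promoters were searched for TGATGNAA, the core of the amino acid response element to which Atf4 binds, in RefSeq windows of GRCm38.p6 that run from 250 bases before to 50 bases after each start, on both strands. A window was found for 27 of the 37 genes (Mars as Mars1), and 10 had no entry, among them Cars, Hars, Hars2, Lars, Nars, Pars2, Rars, Vars and Wars. The motif stood in 5 of the 14 cytosolic genes (35.7%) and in 0 of the 13 mitochondrial ones, against 3.97% of all 32851 windows and 4.51% of all genes with a window. A match from each of the 5 genes is printed because no mitochondrial window held one, on the strand that reads TGATGNAA and with those letters in capitals. The match of Aars (alanine) lay in its first transcribed bases at chr8:111033840-111033869 on the minus strand. The match of Gars (glycine) was upstream at chr6:55037960-55037989 on the minus strand. For Iars (isoleucine) it lay in the first transcribed bases at chr13:49682126-49682155 on the minus strand. For Tars (threonine) it lay upstream at chr15:11399655-11399684 on the plus strand, and for Yars (tyrosine) in the first transcribed bases at chr4:129189895-129189924 on the plus strand.
Aars: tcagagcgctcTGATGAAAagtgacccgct
Gars: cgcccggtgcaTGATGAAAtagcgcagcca
Iars: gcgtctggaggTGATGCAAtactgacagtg
Tars: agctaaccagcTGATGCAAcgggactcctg
Yars: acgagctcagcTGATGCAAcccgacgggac

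Between 8 and 28 months the called cytosolic genes were all higher and the called mitochondrial genes both lower. Of the 21 cytosolic genes 10 rose (47.6%) and 0 fell, while 21.0% of all genes tested were called higher. Of the 16 mitochondrial genes 2 fell (12.5%) and 0 rose, while 18.7% of all genes were called lower. The cytosolic share was above that background and the mitochondrial share was not. In total 12 of 37 genes were called (32.4%), below the 39.6% of all genes. The same test at an unadjusted p under 0.05 gave 13 cytosolic genes higher and 0 lower, and 2 mitochondrial genes higher and 7 lower. The share of all genes at that unadjusted p is not given, here or for other ages, so these counts have no background beside them. DESeq2 and limma likewise called no cytosolic gene lower and no mitochondrial gene higher. With upper-quartile scaling, which shifted the median gene to -0.05 on the log2 scale, the same 10 genes rose and 5 mitochondrial genes fell, so the split was 10 to 5 in place of 10 to 2. The share of all genes called lower under that scaling is not given, so the 5 falls cannot be set against it.

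The log2 fold change had a median of 0.22 over the cytosolic genes (range -0.04 to 0.74) and of -0.14 over the mitochondrial genes (range -0.41 to 0.57), beside 0.01 over all genes tested. It was above 0 for 18 of 21 cytosolic genes and below 0 for 10 of 16 mitochondrial genes. Members were not independent of each other, and no test was made on these medians.

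**Figure D1:**
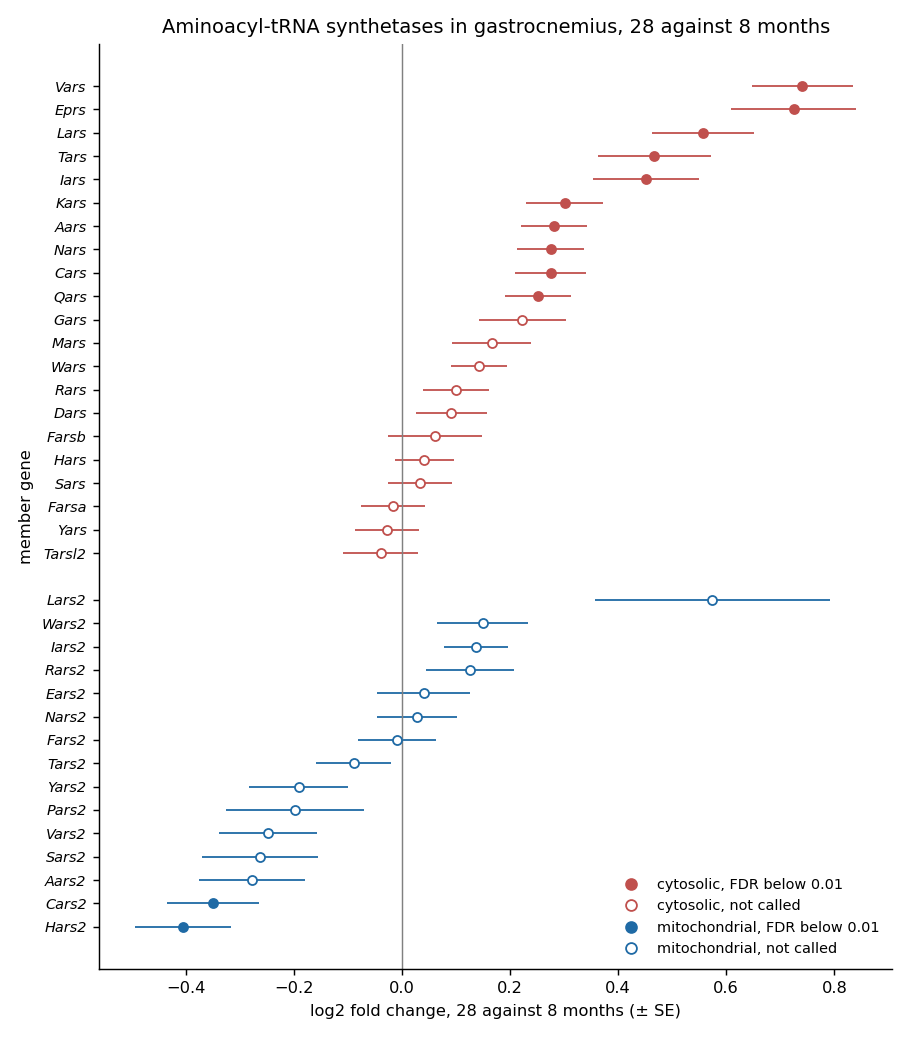
The plot gives the log2 fold change between 28 and 8 months on the horizontal axis with its standard error for 36 of the 37 genes, cytosolic in red and mitochondrial in blue, filled where the FDR was below 0.01. The 10 filled cytosolic genes lie to the right of 0 and the 2 filled mitochondrial genes, Hars2 and Cars2, to the left.

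Within the multisynthetase complex 5 of 8 genes rose, and outside it 5 of 13 cytosolic genes did, with median log2 fold changes of 0.28 and 0.14. Eprs (GRCm38 chr1:185363044-185428360) had 209 CPM in the lowest, 228 CPM in the median and 285 CPM in the highest mouse of 8 months, against 270, 398 and 570 CPM at 28 months. Of the 9 old mice 7 were above every young one, and 2 overlapped with the top of the young range. The log2 fold change was 0.72 ± 0.12 (SE, FDR = 2.94e-06), a 1.65-fold higher level. Lars, the cytosolic leucine enzyme, which is also known as a leucine sensor of the mTORC1 pathway, went from 40.3 to 53.8 CPM (median 48.2) to 48.6 to 99.9 CPM (median 74.3), and 8 of 9 old mice exceeded all young ones. Its log2 fold change was 0.56 ± 0.09 (FDR = 6.35e-06).

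Iars (isoleucine) had 90.2 to 120 CPM at 8 months (median 99.0) and 110 to 190 CPM at 28 months (median 138). The groups overlapped in 3 of the 9 old mice, and the log2 fold change was 0.45 ± 0.10 (FDR = 0.00018). Iars shares 1656 bases at 96.0% identity with the processed pseudogene Gm4849, so that its level carries an uncertainty the table does not show. Kars, the lysine enzyme of both compartments, had 95.2 to 125 CPM (median 109) and then 120 to 155 CPM (median 133), with 7 of 9 old mice above the young range and a log2 fold change of 0.30 ± 0.07 (FDR = 0.000504). Qars, which charges glutamine, rose by 0.25 on the log2 scale (FDR = 0.000663). The complex members Dars (0.09), Mars (0.17) and Rars (0.10) did not pass the test.

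Outside the complex the change was largest for Vars (GRCm38 chr17:35000987-35016322), the valine enzyme, which travels with elongation factor 1. Its level ran from 34.9 to 50.3 CPM at 8 months (median 43.2) and from 50.9 to 94.4 CPM at 28 months (median 68.7). All 9 old mice were above all 8 young mice, a complete separation found upward in 2.46% of all genes tested. The log2 fold change was 0.74 ± 0.09 (FDR = 5.25e-08), or 1.67-fold. No other member was separated completely in either direction, and 2.24% of all genes were separated downward.

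Tars, the threonine enzyme, whose promoter window holds the motif printed above, had 39.5 to 50.1 CPM at 8 months (median 45.6) and 45.3 to 82.0 CPM at 28 months (median 65.6). Of the old mice 6 lay above the young range and 3 within it, with a log2 fold change of 0.47 ± 0.10 (FDR = 0.000254). Its relative Tarsl2 did not pass the test (-0.04, FDR = 0.654), and it shares 122 identical bases with its neighbour Tm2d3. Aars, also with the motif, had 103 to 122 CPM (median 116) and then 120 to 171 CPM (median 141), a log2 fold change of 0.28 ± 0.06 (FDR = 0.000196) with 7 of 9 old mice above the young range. After a correction for transcript length, chosen after seeing the data, the change was 0.13 and the call was lost (FDR = 0.0706). A stretch of 1326 bases of Aars is identical in Exosc6, a gene of the RNA exosome, and under the stated method reads on it would have been shared out, so the level of Aars is uncertain to that extent.

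Nars (asparagine) had 122 to 147 CPM at 8 months (median 140) and 146 to 206 CPM at 28 months (median 161). Its log2 fold change was 0.27 ± 0.06 (FDR = 0.000262), and 8 of 9 old mice exceeded the young range. Cars (cysteine) rose by 0.27 (FDR = 0.000567). Gars and Yars, which also hold the motif, did not pass the test. Gars was at 0.22 ± 0.08 (FDR = 0.0181) and Yars at -0.03 ± 0.06 (FDR = 0.713). Wars (tryptophan, 0.14, FDR = 0.0174), Farsb (0.06), Hars (0.04), Sars (0.03) and Farsa (-0.02) completed the 11 cytosolic genes that were not called. The motif thus stood in 3 of the 6 risen members that had a promoter window and in 2 of the 20 members with a window that were not called, a description of few genes. Those 2, Gars and Yars, are cytosolic, and many of the 20 are mitochondrial, a group in which 0 of 13 genes with a window held the motif. The contrast therefore also reflects compartment, and a link of the motif with the rise was not tested.

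In the mitochondrial group Hars2, the histidine enzyme, fell most. It had 18.8 to 22.0 CPM at 8 months (median 20.2) and 10.6 to 20.6 CPM at 28 months (median 15.6), and 8 of 9 old mice were below every young one. The log2 fold change was -0.41 ± 0.09 (FDR = 0.000192), a level 0.755 times that of 8 months. Hars and Hars2 lie head to head and overlap on opposite strands, and the reads were assigned with regard to strand. Cars2, the cysteine enzyme (GRCm38 chr8:11513977-11550783), had 14.1 to 20.3 CPM (median 17.2) and then 11.1 to 16.5 CPM (median 13.8), with a log2 fold change of -0.35 ± 0.09 (FDR = 0.000681). The ranges of Cars2 overlapped, with 5 of 9 old mice below the young range, and no old mouse above the young mean. With limma on log2(TPM + 1) the change was -0.25 and the call was lost (FDR = 0.0124). On that scale the median of all genes tested was at 0.06.

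The other 14 mitochondrial genes did not pass the test. Their log2 fold changes ran from -0.28 for Aars2 (FDR = 0.0157) over Sars2 (-0.26), Vars2 (-0.25), Pars2 (-0.20), Yars2 (-0.19), Tars2 (-0.09), Fars2 (-0.01), Nars2 (0.03) and Ears2 (0.04) to Rars2 (0.13), Iars2 (0.14), Wars2 (0.15) and Lars2 (0.57). Iars2 had 80.2 to 101 CPM at 8 months (median 88.5) and 90.0 to 113 CPM at 28 months (median 97.2). The ranges overlapped in 7 of the 9 old mice (FDR = 0.0453). Fars2 had 22.7 to 33.1 CPM (median 26.8) and 22.7 to 30.5 CPM (median 26.3), nearly the same range at both ages.

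Lars2 (GRCm38 chr9:123366927-123462666) had 2774 to 5490 CPM at 8 months (median 4392) and 3650 to 15159 CPM at 28 months (median 4654). Only replicates 3 and 4 of 28 months exceeded the young range, and the medians of the 2 ages were close. The log2 fold change of 0.57 ± 0.22 had an FDR of 0.0241, and it was 0.31 without replicate 3 and 0.42 without replicate 4. In those mice Lars2 reached 7733 and 6208 TPM, while the 21 cytosolic genes summed to 1269 and 1290 TPM, the 2 lowest sums of their age. An 18-month mouse also had 10195 CPM of Lars2.

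**Figure D2:**
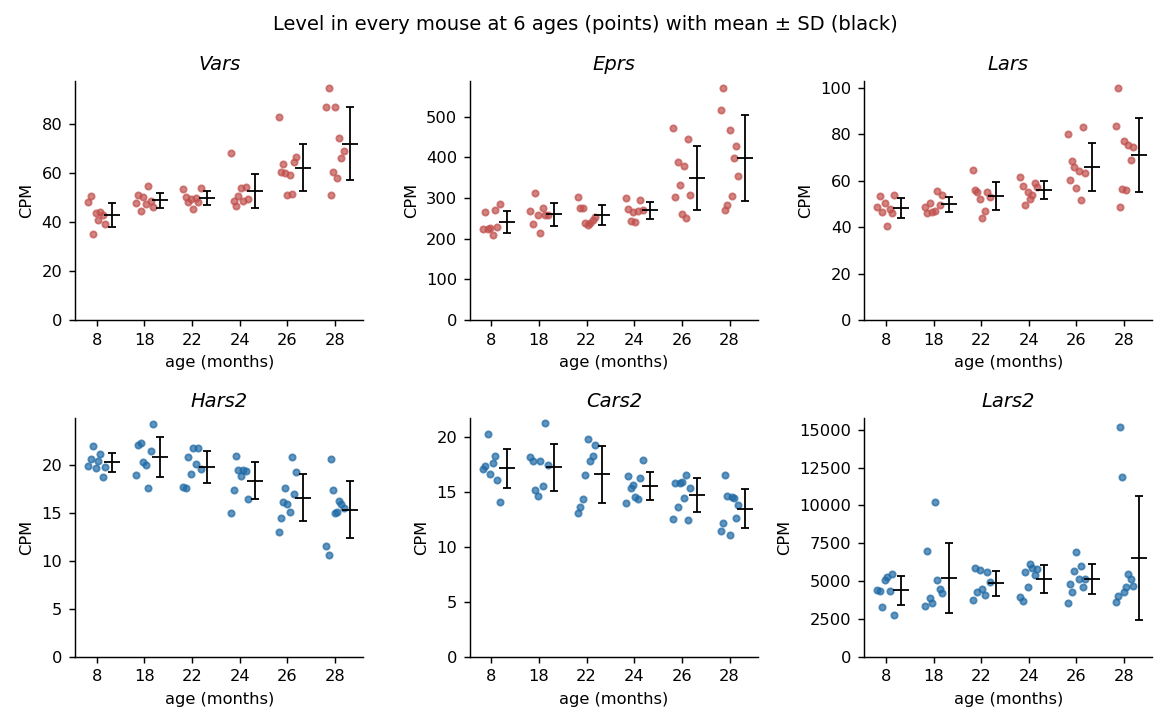
Each panel plots CPM against age in months for 1 gene, with a point per mouse and the mean ± SD in black, 8 or 9 mice per age. The means of Vars, Eprs and Lars rise less up to 24 months than after it, and their mice are more scattered at 26 and 28 months. Hars2 and Cars2 are lowest at 28 months, and Lars2 shows 2 mice at 28 months and 1 at 18 months far above the rest.

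Over the 6 ages all calls of members against 8 months came at 26 and 28 months. Smaller uncalled shifts stood before, and at 24 months 16 cytosolic genes were above 0 and 5 below. Vars was then at 0.29 (FDR = 0.0871) and Lars at 0.21 (FDR = 0.226). None of the 37 genes was called at 18, 22 or 24 months against 8 months in edgeR's quasi-likelihood test, when 0.0715% (0.0397% higher, 0.0318% lower), 0.0397% and 0.612% of all genes were. DESeq2 and limma called 0 as well, and the unadjusted p was under 0.05 for 0, 2 and 4 genes. At 26 months 10 cytosolic genes were called higher (47.6%, beside 9.84% of all genes), the same 10 that were higher at 28 months. No mitochondrial gene was called lower there (8.55% of all genes), with an unadjusted p under 0.05 for 5 of them, while DESeq2 called Hars2 and limma none. In total 27.0% of the members and 18.4% of all genes were called at 26 months. A fit on these 2 ages alone called 4 members, Eprs, Lars, Tars and Vars, and limma on log2(TPM + 1) called 6. The shares of all genes in those fits are not given.

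The mean level of Vars was 43.0, 48.7, 49.6, 52.4, 62.1 and 71.8 CPM from 8 to 28 months. That of Eprs was 242, 260, 258, 270, 349 and 399 CPM. Both thus made most of their change after 24 months, by a log2 fold change of 0.53 each at 26 months (FDR = 5.35e-05 for Vars and 0.000645 for Eprs). Lars followed at 0.45 and Tars at 0.38, and the smallest called change at 26 months was that of Nars and Cars at 0.22. Hars2 had means of 20.3, 20.9, 19.8, 18.4, 16.6 and 15.4 CPM, and Cars2 of 17.1, 17.2, 16.6, 15.5, 14.7 and 13.5 CPM.

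The median log2 fold change against 8 months was 0.07, 0.07, 0.06, 0.19 and 0.22 over the cytosolic genes at 18, 22, 24, 26 and 28 months. Over the mitochondrial genes it was 0.02, -0.02, -0.06, -0.13 and -0.14. These comparisons share the mice of 8 months and are not independent. The scatter among mice grew as well. The median coefficient of variation of the cytosolic genes was 7.91% at 8 months, 7.53% at 24 months and 11.8% at 28 months. That of the mitochondrial genes was 11.3%, 9.11% and 13.3%. The paper reports more variation between replicates at older ages across genes in general, so this trait is not particular to the synthetases. A value over all genes is not given here.

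**Figure D3:**
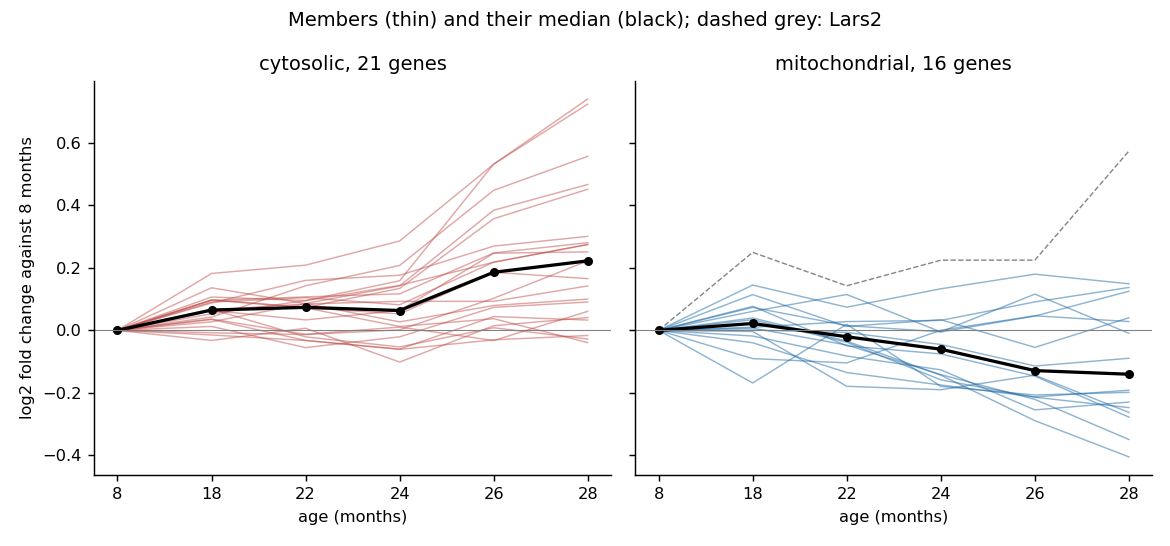
Each thin line is 1 gene, plotted as log2 fold change against 8 months (vertical axis) over age in months, with the group median in black, for 21 cytosolic genes on the left and 16 mitochondrial genes on the right. The cytosolic median reaches 0.22 and the mitochondrial median -0.14 at 28 months, and Lars2 (dashed) leaves its group upward.

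Between 22 and 28 months, ages with the same start of the diet, 6 cytosolic genes rose (28.6%, beside 16.2% of all genes) and 2 mitochondrial genes fell (12.5%, beside 11.5%). The risen genes were Eprs (0.63 ± 0.12, FDR = 6.68e-05), Vars (0.53 ± 0.09, FDR = 3.77e-05), Lars (0.41), Tars (0.38), Iars (0.38) and Qars (0.22), and Hars2 (-0.37, FDR = 0.000965) and Cars2 (-0.30, FDR = 0.00433) fell. In all, 8 of 37 members were called (21.6%) beside 27.7% of all genes. Without replicate 2 of 28 months 5 remained, with Iars, Tars and Cars2 lost, and a fit on these 2 ages alone called 2, Eprs and Vars. For those fits the shares of all genes are not given. The test for any difference over the 6 ages called 12 members (32.4%, beside 35.4% of all genes), 10 of them cytosolic.

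Among the old mice the same few were often highest or lowest over the cytosolic genes. Replicate 2 was the highest mouse of 28 months for 7 of the 10 risen genes, and replicate 4 was the lowest for 5. The summed level of the 21 cytosolic genes was 1193 ± 79.6 TPM (SD, n = 8) at 8 months and 1508 ± 250 TPM (n = 9) at 28 months, with a lowest mouse of 1269 TPM and a highest of 2051 TPM. The sum of the mitochondrial genes without Lars2 was 231 ± 13.7 TPM at 8 months and 229 ± 14.9 TPM at 28 months, nearly equal. With Lars2 it was 2421 ± 447 and 3634 ± 2083 TPM. The log2 ratio of the cytosolic to the mitochondrial sum without Lars2 was 2.37 ± 0.08 at 8 months, 2.42 ± 0.08 at 18 months and 2.45 ± 0.11 at 22 months. It was 2.50 ± 0.06 at 24 months, 2.65 ± 0.18 at 26 months and 2.71 ± 0.23 at 28 months. Of 8 mice at each age, 2 at 18 months, 3 at 22 months and 5 at 24 months exceeded the range of 8 months. At 26 and at 28 months 7 of 9 mice did.

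For 14 pairs of genes that charge the same amino acid, the log2 ratio of (TPM + 1) of the cytosolic to the mitochondrial gene was compared mouse by mouse between 28 and 8 months by a two-sided exact permutation test over 24310 arrangements, with p-values adjusted over the 14 pairs. Eprs enters with both Ears2 and Pars2. The ratio was higher at 28 months in 9 pairs past an adjusted p of 0.05 and lower in none past it. Ratios of other gene pairs were not tested, so this count has no background beside it. As single genes, 39.6% of all genes were called between these ages at the stricter FDR of 0.01. The largest shift was that of Eprs to Pars2, from 4.36 ± 0.30 (range 3.98 to 5.002, n = 8) to 5.28 ± 0.65 (range 4.26 to 6.37, n = 9), a difference of 0.92 (exact permutation p = 0.00255, adjusted 0.00633). Pars2 itself did not pass the gene test, and it had only 36 to 117 reads per mouse.

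Vars to Vars2 went from 1.48 ± 0.15 (range 1.22 to 1.63) to 2.39 ± 0.50 (range 1.54 to 3.16), and 8 of 9 old mice were above the young range. The difference was 0.91 (exact permutation p = 0.000494, adjusted 0.00374). Eprs to Ears2 shifted by 0.67, from 3.79 ± 0.34 to 4.47 ± 0.37 (adjusted exact permutation p = 0.00633). For Aars to Aars2 (0.55, adjusted exact permutation p = 0.00595), Cars to Cars2 (0.54, p = 0.00374) and Hars to Hars2 (0.41, p = 0.00633), 7 of 9 old mice exceeded the young range in each pair. Iars to Iars2 (0.35) and Nars to Nars2 (0.31) also passed. The shift of Nars to Nars2 had an adjusted p of 0.0271 in the exact permutation test, and it missed the threshold without replicate 3, 4 or 5 of 8 months (0.0640, 0.0518 and 0.0612).

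In 5 pairs no shift passed. They were Sars to Sars2 (0.29, adjusted exact permutation p = 0.127), Yars to Yars2 (0.16), Lars to Lars2 (0.09), Wars to Wars2 (0.02) and Rars to Rars2, whose difference of -0.04 was the only one below 0 (adjusted exact permutation p = 0.695). Lars to Lars2 was at -6.58 ± 0.42 and -6.48 ± 0.98, the only pair with the mitochondrial gene above the cytosolic one.

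**Figure D4:**
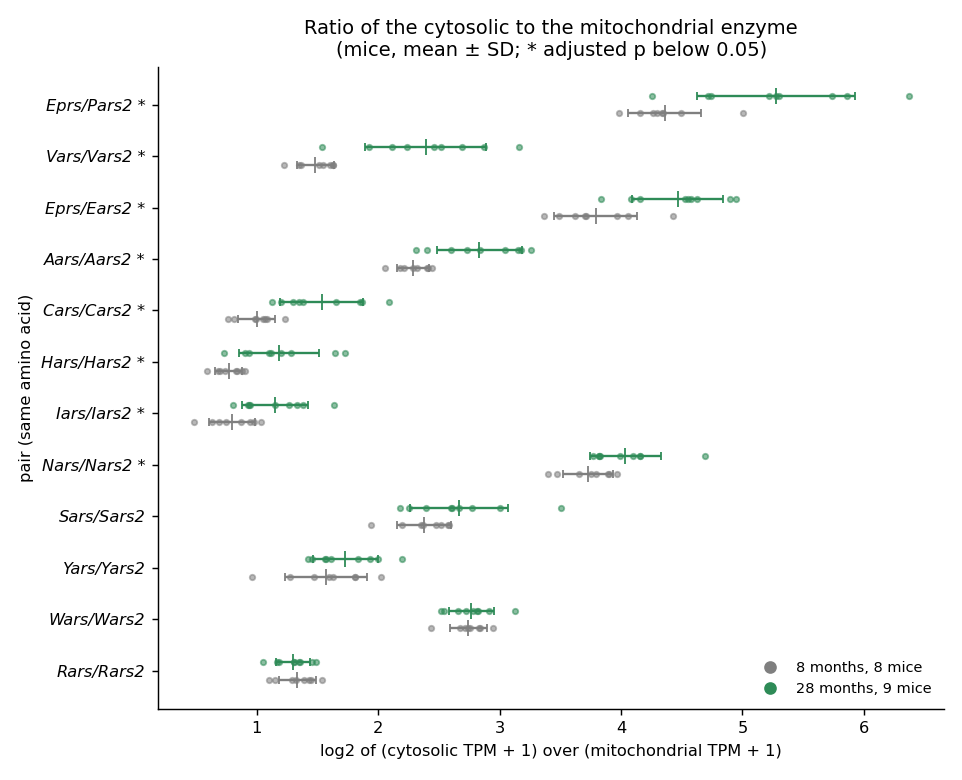
The horizontal axis gives the log2 ratio of (TPM + 1) of the cytosolic over the mitochondrial gene for 12 of the 14 pairs (Lars to Lars2, near -6.5, is left out for scale), with points for mice, bars for mean ± SD, 8 months in grey and 28 months in green. The 8 pairs with a star have an adjusted p below 0.05 in the exact permutation test, all with the 28-month mean to the right.

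Other genes of aminoacylation and translation were described from lists (28 against 8 months, the same fit). Of all genes tested, 21.0% were called higher and 18.7% lower in this comparison, the shares to set beside each count. Of the 3 scaffold genes of the multisynthetase complex 2 fell and 0 rose, opposite in sign to the 5 complex enzymes that rose. Aimp2 went from 142 ± 22.4 to 87.2 ± 36.4 CPM (log2 fold change -0.70, FDR = 0.000718) and Eef1e1 from 13.0 ± 1.98 to 10.3 ± 0.871 CPM (-0.34, FDR = 0.00203), while Aimp1 was at -0.22 (FDR = 0.0456). Mitochondria have no glutamine enzyme of their own and make glutaminyl-tRNA with an amidotransferase, and 2 of its 3 subunit genes fell, Gatb by 0.53 (FDR = 1.47e-06) and Qrsl1 by 0.31 (FDR = 0.00696) on the log2 scale, with Gatc at -0.17. With limma on log2(TPM + 1), where the median of all genes tested was at 0.06, 1 of 3 fell in each of these lists.

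Of 9 mitochondrial translation factors 5 fell and 0 rose. They were Mtrf1l (-0.51), a release factor, the elongation factors Tsfm (-0.33) and Tufm (-0.29), Gfm2 (-0.28) and the initiation factor Mtif2 (-0.22). Of these, Tufm brings charged tRNA. With limma, on that same scale, 2 of the 9 fell. The formyltransferase Mtfmt, which modifies the initiator tRNA of mitochondria, was at -0.35 (FDR = 0.0153). Of 6 cytosolic elongation factors 2 rose, Eef2 (0.48, FDR = 2.86e-05) and Eef1a1 (0.41, FDR = 0.00181), and 0 fell, where the unadjusted p was under 0.05 for 2 lower genes and DESeq2 and limma each called 1. Of 8 subunits of the initiation factors eIF2 and eIF2B 3 rose, Eif2b1 (0.38), Eif2b5 (0.21) and Eif2s3x (0.18).

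Genes that mature tRNA were mixed. In the list for mitochondria, 2 of 10 rose, Trnt1 (0.40), which adds the CCA end in both compartments, and Elac2 (0.29), which cuts the trailer off the precursor before CCA is added, and Gtpbp3 fell (-0.38). In the cytosolic list of 9, Trnt1 rose and Tsen34, of the intron-splicing complex, fell (-0.46). None of the 4 trans-editing and deacylase genes (Aarsd1, Prorsd1, Dtd1 and Dtd2) was called, the closest being Prorsd1 at -0.29 (FDR = 0.0109), the only one with an unadjusted p under 0.05, and DESeq2 and limma called 0.

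The list of Atf4 and its amino acid targets split. Of 19 genes tested 4 rose and 5 fell. Ddit4, an inhibitor of mTORC1, rose by 2.21 on the log2 scale from 56.9 ± 43.4 to 263 ± 196 CPM (FDR = 0.000778), and Phgdh and Psph, both of serine synthesis, fell by 1.23 and 0.76. Named after their values were seen, Slc7a5 (0.59), Atf4 itself (0.56, FDR = 0.000563) and Slc3a2 (0.50) also rose, and Aldh18a1 (-0.76), Nupr1 (-0.61) and Mthfd2 (-0.47) also fell. Of the 4 kinases that phosphorylate eIF2, Eif2ak4, which senses uncharged tRNA, rose (0.47, FDR = 0.000477) and the others were not called. Of 12 interferon-induced genes 0 were called by edgeR, DESeq2 or limma, with an unadjusted p under 0.05 for 2 in edgeR (1 higher, 1 lower) and a median log2 fold change of -0.07. These counts stand beside the 21.0% of all genes called higher and the 18.7% called lower in this comparison, or 39.6% in either direction.

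The fold change between 28 and 8 months moved with transcript length. Over 12022 genes with a length the Spearman correlation of log2 fold change and the longest protein-coding transcript was 0.32, and the median log2 fold change rose from -0.21 in the shortest length quintile to 0.22 in the longest. Over the 21 cytosolic members the correlation was 0.60 and over the 16 mitochondrial ones 0.28, given as descriptions of genes that share the same libraries. Vars and Eprs, with 4137 and 4906 bases, belong to the quintile of 3749 to 5221 bases, whose median log2 fold change was 0.09, and Cars2 with 1902 bases to one with a median of -0.08. After a length trend was fitted and removed in every mouse, an alternative chosen after seeing the data, 9 of the 10 risen cytosolic genes were still called. Aars dropped to 0.13 (FDR = 0.0706) and Gars (0.29), Rars (0.20) and Wars (0.16) were then called higher. Hars2 and Cars2 were still called lower, with Vars2 (-0.32) among those newly called lower, and Rars2 (0.25) was called higher. The share of all genes called after this correction is not given.

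**Figure D5:**
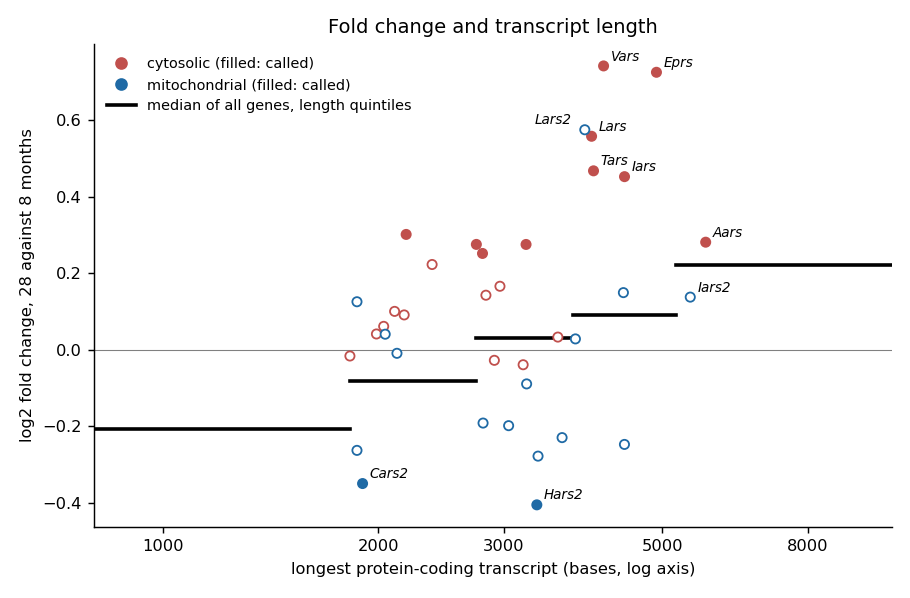
The log2 fold change between 28 and 8 months is plotted against the longest protein-coding transcript in bases (log axis) for the 37 members, filled where called, with the median of all genes in each of 5 length quintiles as black bars that run to the edge of the plot. Vars and Eprs lie far above the bar of their quintile, Hars2 and Cars2 below theirs, and Aars close to its own.

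Markers of other cells changed between the same groups, where 21.0% of all genes were called higher and 18.7% lower. Of 8 macrophage markers 5 were called higher at 28 months (Cd163, Mrc1, Lyz2, C1qb and Csf1r). The sum of all 8 was 164 to 295 CPM at 8 months and 245 to 619 CPM at 28 months. Of 6 fibroblast markers 4 were lower (Col3a1, Col1a1, Col1a2 and Lum), and all 6 summed to 1090 to 1609 and 692 to 997 CPM. Of 5 adipocyte markers 3 were lower (Plin1, Adipoq and Retn), and all 5 summed to 233 to 335 and 162 to 308 CPM. Most of these 2 sums came from markers that were not called. They were Dcn for fibroblasts (means of 737 and 640 CPM) and Fabp4 for adipocytes (219 and 184 CPM). No lymphocyte marker passed the filter. Of 4 satellite cell markers 3 were tested, and 1 of them, Cdh15, was called higher. Pax7 went the other way without a call (-0.67, FDR = 0.0262), and Myf5 was at 0.23 (FDR = 0.331). Calcr, not tested, had means of 0.482 CPM at 8 months and 0.142 CPM at 28 months. None of 5 endothelial, 5 Schwann cell or 4 erythroid markers was called. Their unadjusted p was under 0.05 for 1, 2 and 1, with 1 Schwann cell marker called by DESeq2 and 0 by limma. Among the myofibre markers Ttn (1.27) and Myh1 (0.67) were higher and Pvalb (-0.74) lower. The part of these cells in the changes of the synthetase genes was not tested.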

How the data were processed

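The authors trimmed paired, stranded reads with cutadapt 1.9.1 and assigned them with kallisto 0.43.1 to protein-coding Ensembl transcripts of GRCm38. Strand was used in the assignment, and reads matching more than 1 transcript were shared out equally. They deposited counts per gene, summed over transcripts and not normalized, whole in the file, and TPM, scaled by transcript length and library size by the authors.

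From the counts, edgeR 4.0.16 in R 4.3.3 gave TMM factors, CPM and the quasi-likelihood test (1 fit over 6 ages, a minimum of 1 CPM in 8 mice, p-values adjusted by Benjamini-Hochberg over 12586 genes, FDR 0.01). Ratios of pairs used log2(TPM + 1) and exact permutation tests. DESeq2 1.42.0 and limma 3.58.1 were alternatives. The procedures were tested on simulated data. With 8 or 9 mice per age, precision is set by the spread between mice. Groups and replicate numbers came from the labels. Lengths and positions came from GENCODE vM21 (GRCm38), promoters from RefSeq.

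The members and lists were chosen with earlier results of these data known. The text gives values for members called between 28 and 8 months (the 8 largest changes per group), the 3 most abundant of each group, the 3 largest pair shifts in each direction, and from each list all called genes, or the 3 largest changes where more than 5 were called. The values of 1 member, its pair and 1 promoter window are not reported here.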

Additional observations from a re-analysis of the deposited data

Results flagged for a closer look

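Within an age, 1 mouse stood apart from the others, by the gap to its neighbour relative to the whole range of the group (Dixon's criterion at 95%), in 13 of 222 combinations of member and age. Chance flags about 1 group in 20, so that this number is near what chance gives. At 8 months replicate 3 was high for Fars2 (33.1 CPM, the others 22.7 to 27.2) and for Yars2 (23.1 CPM, the others 12.4 to 16.9), and replicate 5 was low for Mars (60.0 CPM). At 18 months replicate 2 was high for Hars (38.7 CPM) and Rars (57.0 CPM) and replicate 5 for Fars2 (34.1 CPM). At 22 months replicate 5 was low for Tars (36.1 CPM, the others 47.0 to 56.2).

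At 24 months replicate 1 was high for Vars (68.2 CPM, the others 46.5 to 54.1) and replicate 3 low for Aars (107 CPM). At 26 months replicate 1 was high for Vars (82.7 CPM, the others 51.1 to 66.5), replicate 8 for Hars (40.8 CPM) and replicate 9 for Pars2 (6.17 CPM), and replicate 7 was low for Farsb (35.9 CPM, the others 52.4 to 65.6). No mouse of 28 months stood apart by this criterion, also for Lars2, where 2 mice were high together.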

How the results depend on the processing

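The 10 cytosolic genes that rose between 8 and 28 months and the falls of Hars2 and Cars2 were called in every leave-one-out of the 17 mice, with 2 to 4 mitochondrial genes lower (4 without replicate 3 or replicate 4 of 28 months, which both add Aars2) and 10 to 11 cytosolic genes higher. At FDR 0.05, 20 members were called between 8 and 28 months, with 2 mitochondrial genes higher and 6 lower. The share of all genes called is not given for this or any other setting of this section. None of these counts can therefore be set against a background. The mitochondrial genes called lower were 1 with limma on log2(TPM + 1), which lost Cars2, 5 with upper-quartile factors and 4 after the length correction, which also called 1 higher. At 26 months 6 members were called with limma and 4 in a fit on the 2 ages alone, and between 22 and 28 months 2 in such a fit and 5 without replicate 2 of 28 months; the causes were not tested, but the fit on 2 ages has fewer mice. Replicate numbers are shared between ages, but nothing states that they pair mice. The correlation of deviations between same-numbered mice of 8 and 28 months was -0.165 to 0.188, over 0.1 in 3 of 8, and 0 mice correlated best with their own number. With the replicate block, 13 members were called between 8 and 28 months, 11 at 26 months and 8 between 22 and 28 months, and 9 pairs passed. The log2 ratio of the summed mitochondrial TPM, 0.59 with Lars2, was -0.013 without Lars2 and 0.35 without replicate 3 of 28 months.

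Signs turned only for uncalled values near 0: with upper-quartile factors Ears2 (-0.014), Hars (-0.014), Nars2 (-0.020) and Sars (-0.024), with limma Fars2 (0.046), Farsa (0.034), Tarsl2 (0.039) and Yars (0.041), and after the length correction Fars2 (0.083), Farsa (0.11), Nars2 (-0.016) and Sars (-0.0013). Leaving out 1 mouse gave ranges of -0.0066 to 0.078 for Ears2, -0.038 to 0.043 for Fars2, -0.046 to 0.016 for Farsa, -0.00095 to 0.11 for Farsb and -0.0043 to 0.070 for Nars2, and for the pairs -0.034 to 0.33 for Lars to Lars2 and -0.020 to 0.056 for Wars to Wars2, which was -0.015 at a pseudocount of 0.1. Leaving Lars2 out of the library sizes changed no count of members. The length correction, the sums without Lars2 and the library sizes without Lars2 were chosen after seeing the data. The uneven depth of the members limits the low ones, and Pars2 had the fewest reads.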
